A study of Mus musculus with 221 samples.

Results

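Retained-intron transcripts are annotated alternative isoforms that keep sequence which other isoforms of the same gene splice out. They were followed here in full-length single-cell cDNA of mouse embryonic hemogenic endothelium (HE), the endothelium that gives rise to blood. A transcript was taken as a member when GENCODE gives it the biotype retained_intron and its estimated count, the number of reads that a quantifier assigns to an isoform, summed to at least 10 over all cells kept. This chose 4455 of 278369 transcripts in the table, from 3047 of 78317 genes. The table holds 22064 transcripts of this biotype, of which 11510 were above 0, and 36092 transcripts of any biotype met the same count minimum. At the minimum, Shisa4-202, Hcn3-203 and Vrk3-203 were just inside with 10 counts, and Ap3d1-206 with 9.99991, Ssbp4-208 with 9.99982 and Trpm4-206 with 9.99949 were just outside. The rule used the summed counts, so that these members are abundant is not a result.

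The cells came from untreated embryos of reporter males (Gfi1-GFP and Runx1b-RFP, on C57BL/6JOlaHsd) crossed with wild-type CD-1 females. HE of the aorta-gonad-mesonephros region (AGM) was sorted at E9.5 and E10.5 as RUNX1 and CDH5 positive, with or without GFI1, and without KIT, CD41 or CD45. Yolk sac (YS) HE was sorted at E9, E9.5 and E10.5 as positive for RUNX1, KIT and CD31, with or without GFI1, and without CD41 or CD45. The gates therefore differed in KIT between the tissues. Cells carry the names of clusters assigned in short-read data of the same cDNA. AGM_3 and AGM_4 are early and late HE-AGM, and AGM_5 is labelled HE-Hb. YS_m1 and YS_m2 are early and late HE-YSA, YS_b2 and YS_b3 are early and late HE-YSP, and YS_p1 and YS_p2 are early YS hematopoietic progenitors, labelled LMP and EMP skewed. After the study's depth limit of 17595 counts, 208 of 221 cells remained, with totals from 18131 to 125339 counts. They comprised 49 HE-AGM, 21 AGM_5, 52 HE-YSA, 49 HE-YSP, 17 YS_p1 and 20 YS_p2 cells, spread over 3 nanopore runs with different cells in each.

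Because the labels name no embryo, a population was treated as 1 sample and no test between populations was possible. Differences are given pooled, in each run, and in cells of matched depth (totals of 30000 to 60000). All but 1 YS cell came from one cDNA project and the AGM cells from others, so project and tissue cannot be told apart. Markers summed to the following counts per 1000000 counts (CPM). Arterial genes were at 842 CPM in HE-AGM, 681 for HE-YSA and 103 for HE-YSP, and yolk sac plexus genes at 1.80, 109 and 1163. Hemogenic genes were at 378, 345 and 127 CPM, early blood genes at 487, 201 and 176, and megakaryocyte genes at 6.31, 9.97 and 44.3. General endothelial genes lay at 1479, 1271 and 1246 CPM. Erythroid genes stood at 228 CPM in HE-AGM against 46.2 and 36.5, and macrophage, mesenchyme and yolk sac endoderm genes stayed below 20 CPM in all 3 HE populations. The labels of 3 kept YS libraries conflict on the tissue. The cDNA of 1 YS_m1 cell came from an AGM project (member share 5.34%), and 1 YS_m1 and 1 YS_m2 library carry AGM in their names (4.58% and 4.98%). Results are given with them, and without them where they bear on the value.

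Introns are normally removed as a transcript is made, at a start that in nearly all introns reads GT and an end that reads AG. An isoform that keeps an intron often carries a premature stop codon and is then held in the nucleus or degraded, and genes of splicing factors and of RNA-binding proteins are well known to keep their expression in check in this way. Retention also changes during blood formation, where it is best known in erythroid and granulocyte maturation. In GENCODE the biotype is a label of the annotators. It covers transcripts with a whole intron and also short, incomplete models that only run past an exon's edge.

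To show what the members hold, their exons were compared with those of the other protein-coding isoforms of the same gene. In GENCODE M21 (GRCm38), 4423 members were found by identifier and 4400 had the same length. Of the 4385 that could be compared, 1896 (43.2%) held at least 1 whole intron of a coding isoform and 2489 held none. What sets those 2489 apart from coding isoforms was not sorted further. Those with a whole intron carried 59.5% of the counts of the compared members. The median member had 318 bases, 31.1% of its length, outside coding exons. In 719 members, with 15.7% of the counts, under 10% of the length lay outside coding exons. Among the members described below, Lyve1-202 (3.24%), Nid1-203 (0.929%), Itm2b-202 (8.34%), Polr2e-205 (8%), Hnrnpk-217 (8.92%), Psmb4-202 (2.85%), Srpk1-206 (5.31%) and Birc6-206 (2.82%) are of that kind. The 2822 distinct introns held whole had a median length of 250.5 bases (38 to 6046), against 1160 bases for the 43492 other introns of the same genes, and 68.0% against 29.9% were no longer than 500 bases. Of the introns held whole, 98.2% began with GT and ended with AG.

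The splice sites below belong to 7 members whose levels are described further on, and show the intron that each keeps. Bases of the neighbouring exon are in lower case, 15 on each side except for the short first exon stretch of Rpl37a-204, and the first or last 15 bases of the intron are in capitals, all 5′ to 3′ on the gene's strand. In GRCm38 coordinates of GENCODE M21, the kept introns lie at chr1:72711324-72711671 (plus strand) in Rpl37a and chr9:120571542-120572095 (plus strand) in Rpl14, which encode proteins of the large ribosomal subunit. That of Polr2e, a subunit shared by the nuclear RNA polymerases, is at chr10:80036843-80036914 (minus strand), and that of Cdk4, the cyclin-dependent kinase of the G1 phase, at chr10:127065265-127065952 (plus strand). Tsn, which encodes the nucleic acid-binding protein translin, keeps chr1:118308842-118309772 (minus strand). Sf3b1, a component of the U2 particle that recognises the branch point, keeps chr1:55014563-55016375 (minus strand), and Arglu1, an RNA-binding regulator of splicing and transcription, keeps chr8:8681468-8683747 (minus strand).
Rpl37a-204, intron start: cggcgacatgGTGAGTGTCTTCGTA
Rpl37a-204, intron end: TTCCTCTGTCAACAGgctaaacgcaccaag
Rpl14-202, intron start: agcgccgccaacatgGTGAGTGTGTGTGCC
Rpl14-202, intron end: CTTTTCCTGTTTTAGgtgttcaggcgttac
Polr2e-205, intron start: actgctggctcgataGTATCCTTTACTCTG
Polr2e-205, intron end: CCTTGACTGTTCTAGcaagcttcgtgagag
Cdk4-207, intron start: gatgttccgtcggaaGTATGGGACTAGAAA
Cdk4-207, intron end: CTTTTTCTGCCTTAGgcctctcttctgtgg
Tsn-203, intron start: ctggatttcaggacaGTAAGTTTTTTTGCT
Tsn-203, intron end: ATCTTTTATGATCAGttccaaagaggtgct
Sf3b1-203, intron start: atccttttgcagatgGTAATTCTTTCCCAC
Sf3b1-203, intron end: TGTTCTTTTCTGCAGgagggaagactcccg
Arglu1-204, intron start: caaaaagccagagagGTAACGCTCGGTCGT
Arglu1-204, intron end: TGTCCTCCCCTTTAGgaggaagagagagca
All 7 introns begin with GT and end with AG. Their lengths were 348 bases in Rpl37a-204, 554 in Rpl14-202, 72 in Polr2e-205, 688 in Cdk4-207, 931 in Tsn-203, 1813 in Sf3b1-203 and 2280 in Arglu1-204.

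The members held 528896 counts, 5.39% of all counts and 19.5% of the counts of their parent genes. Transcripts of the biotype below the minimum added 0.234%. Counts were unevenly spread, since the median member had 29 counts and the highest 36568, the top 10 members held 17.8% and the top 100 held 46.8%. 810 members reached 100 counts and 90 reached 1000. Most parent genes (2087) had 1 member, 960 had more, and Snhg5, a host of small nucleolar RNAs, had the most with 10. Among 2533 parent genes with at least 100 counts, the median member share was 14.4%. In 363 of them (14.3%) the members made up over 50% of the gene's counts, in 88 over 90%, and in 538 under 5%.

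The share of counts in retained-intron transcripts was higher in HE of the AGM than in HE of the yolk sac. It was 5.81% in HE-AGM (95% exact binomial interval 5.78 to 5.83%, which covers counting error only), and the same 5.05% for HE-YSA (5.02 to 5.09%) as for HE-YSP (5.02 to 5.08%). By cell, the lowest, median and highest shares were 4.89, 5.76 and 6.55% for HE-AGM, 4.14, 4.90 and 6.63% for HE-YSA and 4.26, 4.96 and 5.98% for HE-YSP. The cells thus overlapped, and 48 of 49 HE-AGM cells lay above the HE-YSA median but 0 above its highest cell. Against HE-YSP, 47 of 49 lay above the median and 15 above the highest cell. The difference was 0.75 percentage points to HE-YSA (0.35, 0.80 and 1.07 in the 3 runs, 0.68 at matched depth) and 0.76 to HE-YSP (0.55, 0.60 and 1.02, and 0.74 at matched depth). It was 0.743 points to HE-YSA without the 3 libraries with conflicting labels, and both comparisons share the HE-AGM cells. With only whole-number values, in which no divided read shows, the differences were 0.247 and 0.3505 points. These shares also depend on the other classes in the total. Processed pseudogenes held 16.6% of all counts in HE-AGM against 24.8% in HE-YSA and 25.2% in HE-YSP, which leaves more of the total to other classes. The member share without pseudogenes was not computed, so their part in the difference was not tested.

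**Figure D1:**
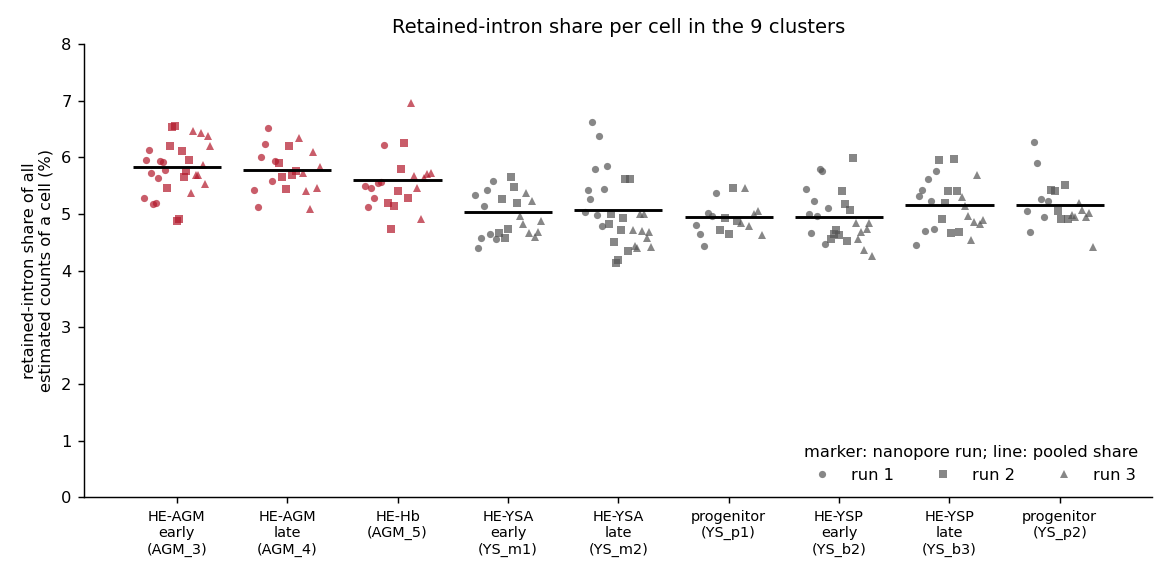
Share of all estimated counts in retained-intron transcripts (%, vertical axis) in each cell of the 9 clusters, with AGM clusters in red, YS clusters in grey, the marker shape giving the nanopore run and a line at the pooled share. The 3 AGM clusters have pooled shares of 5.61 to 5.83% and the 6 YS clusters of 4.94 to 5.16%, with overlapping cells.

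All 3 AGM clusters lay above all 6 YS clusters. The pooled share was 5.83% in AGM_3, 5.78% in AGM_4 and 5.61% in AGM_5. It was 5.03% in YS_m1, 5.08% in YS_m2, 4.94% in YS_p1, 4.95% in YS_b2, 5.15% in YS_b3 and 5.16% in YS_p2. Within a tissue the differences were small and changed sign between runs. AGM_5 minus AGM_4 was -0.17 points (-0.39, -0.30 and 0.05 by run), YS_p1 minus YS_m2 was -0.14 (-0.68, 0.14 and 0.26) and YS_p2 minus YS_b3 was 0.007 (0.21, -0.13 and -0.098). HE-YSP minus HE-YSA was -0.006 points (-0.20, 0.20 and 0.04). Early and late clusters of one kind differed by -0.05 points in HE-AGM, 0.05 for HE-YSA and 0.20 for HE-YSP, also with both signs among the runs. In YS HE the share was 4.76% at E9 (18 cells), 5.14% at E9.5 (27 cells) and 5.08% at E10.5 (55 cells). In HE-AGM it was 5.75% in the 43 cells of the largest cDNA project and 6.28% in the 5 cells of another.

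The share that members took of their own parent genes' counts pointed the same way. It was 20.4% in HE-AGM and 18.8% in both HE-YSA and HE-YSP, a difference of 1.61 points to HE-YSA (0.80, 1.33 and 2.61 by run) and 1.57 to HE-YSP (1.19, 1.47 and 2.06). The median cell had 622 members with at least 1 count in HE-AGM, 344 for HE-YSA and 360 for HE-YSP, with totals that also differed between cells. Over the 3944 members whose parent gene had at least 20 counts in HE-AGM and in YS HE, the median parent share was 8.91% against 7.50%. Single genes moved both ways, since 261 members were higher by 20 points or more in HE-AGM and 256 were lower. The same count was not made over all transcripts, and a parent gene could have as few as 20 counts. These 2 counts are therefore no result about the members.

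Transcript length moved with the tissue as well. Transcripts over 2000 bases of any biotype held 22.5% of all counts in HE-AGM, 12.7% for HE-YSA and 12.5% for HE-YSP, and the 1543 members of that length held 1.88, 1.15 and 1.10%. The 2510 members of up to 1500 bases held 3.46% in HE-AGM, below the 3.56 and 3.59% of HE-YSA and HE-YSP. Members of 801 to 1000 bases held 0.653% in HE-AGM against 0.900 and 0.921%, and those of 601 to 800 bases 1.37% against 1.39 and 1.45%. The higher total share of HE-AGM therefore came with its members over 1500 bases (2.35% against 1.496 and 1.46%) and with those of up to 600 bases (0.734% against 0.576 and 0.547%). Within the class over 3000 bases, members were a smaller part of all counts in HE-AGM, at 7.62% against 9.91 and 9.75%. They were a larger part at 2001 to 3000 bases (9.29% against 8.39 and 8.12%) and at 1501 to 2000 (5.00% against 3.86 and 3.92%). With all populations set to 1 mix of 7 length classes, the differences were 0.471 points to HE-YSA (0.18, 0.42 and 0.78 by run) and 0.470 to HE-YSP (0.34, 0.33 and 0.69). Within populations, a cell's member share went with its share of long transcripts, with Pearson's r of 0.58 in 49 HE-AGM cells, 0.56 in 52 HE-YSA cells and 0.44 in 49 HE-YSP cells, where both measures come from the same library. With the cell's total count, r was 0.10, 0.29 and 0.04. The part of length in the tissue difference was otherwise not tested.

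**Figure D2:**
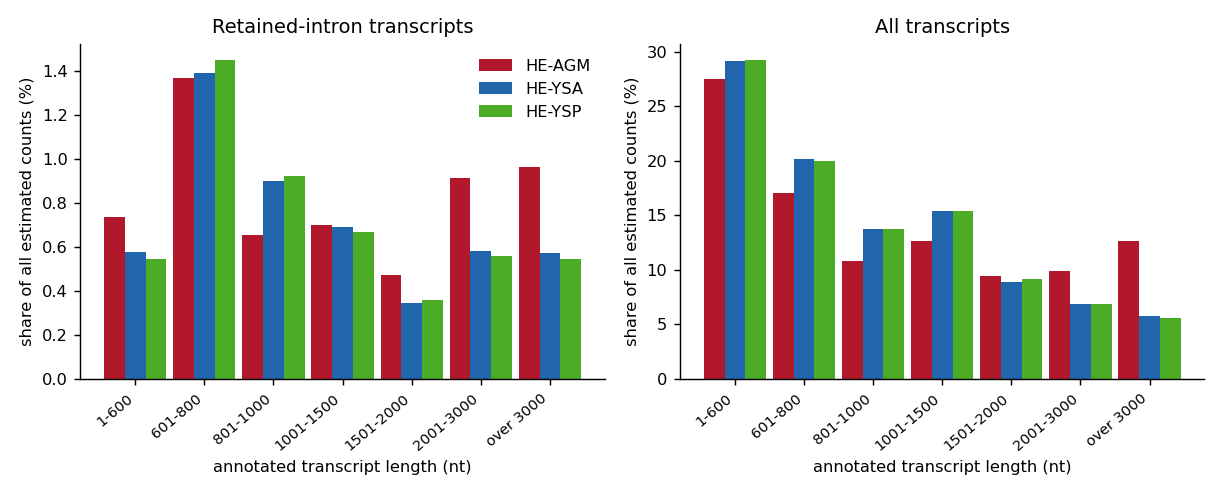
Share of all estimated counts (%, vertical axes) held by retained-intron transcripts and by all transcripts in 7 classes of transcript length (bases, horizontal axis), with 1 bar each for HE-AGM, HE-YSA and HE-YSP. Members over 2000 bases held 1.88% of counts in HE-AGM against 1.15 and 1.10%, while members of 801 to 1000 bases held 0.653% against 0.900 and 0.921%.

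What the members hold differed between tissues as well. The 1347 members that end within 50 bases of a coding isoform's 3′ end, held 1.86% of counts in HE-AGM, 1.14% for HE-YSA and 1.15% for HE-YSP. Their excess over YS HE was 0.57, 0.71 and 0.83 points in the 3 runs. The 3038 members that end elsewhere held 3.81, 3.86 and 3.85%, with differences of -0.20, -0.09 and 0.14. Members ending at a coding 3′ end were also longer, with a median of 2120 against 884.5 bases, so end and length cannot be told apart here. Members with a whole intron held 3.30% in HE-AGM against 2.97 and 2.99%, and members with none held 2.38% against 2.03 and 2.01%. Those with under 10% of their length outside coding exons held 0.844, 0.814 and 0.901%, close in all 3 populations.

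Other classes of transcript differed as well. Nonsense-mediated decay isoforms held 3.63% in HE-AGM against 4.09 and 3.96%, the opposite order to the members, and isoforms of coding genes without a defined coding sequence 4.24% against 4.48 and 4.55%. Long non-coding RNAs held 11.5% against 9.13 and 8.34%. Processed pseudogenes held 16.6% against 24.8 and 25.2%, and protein-coding isoforms 55.2% against 50.01 and 50.5%. Reads that fit a pseudogene and its parent equally were divided between them by the authors' quantifier, so members of genes with many copies, such as those of ribosomal proteins, Ppia, Hsp90ab1, Eef1a1, Tubb5 and Pabpc1, carry uncertain levels.

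Member by member, more were higher in HE-AGM than lower. A log2 ratio was taken of summed CPM with 0.5 counts added to each sum, for members with at least 50 counts over the populations compared. A call is a difference past 2-fold. The minimum is in counts, and cells of HE-AGM had more of them (median total 59311 against 34483.5 and 33297). A member therefore passes at a lower CPM in HE-AGM, which favours upward calls, for all transcripts too. At matched depth 29.2% were higher and 16.6% lower than in HE-YSA, beside 21.9 and 18.56% of all transcripts. Against HE-YSP these were 28.97 and 17.4%, beside 23.8 and 19.01%. In all kept cells the calls were as follows. Against HE-YSA, 391 of 929 members (42.1%) were higher in HE-AGM, where 33.1% of all 11585 transcripts that could be compared were, and 132 (14.2%) were lower, where 16.8% of all were. Requiring the same side in each run left 329 members higher (35.4%, beside 28.5% of all transcripts) and 125 lower (13.5%, beside 15.2%). Against HE-YSP, 367 of 902 (40.7%) were higher, beside 34.3% of all, and 133 (14.7%) were lower, beside 17.3%. The same side in each run held for 316 (35.0%, beside 30.4% of all) and 112 (12.4%, beside 16.1%). The median log2 ratio of the members was 0.62 in both comparisons, where that of all transcripts was 0.23 and 0.29. By length, members of up to 2000 bases had a median of 0.29 against HE-YSA, where all transcripts had -0.25, and longer members 1.07, where all had 1.12. Against HE-YSP these were 0.30 and -0.23, and 1.05 and 1.13. The median of the members thus stood above that of all transcripts of up to 2000 bases, and not above that of longer ones. All transcripts include processed pseudogenes, which held 16.6% of counts in HE-AGM against 24.8 and 25.2% in HE-YSA and HE-YSP. Their part in these medians was not tested.

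A higher level can come with the whole gene or with the isoform's part of it. Among 1142 members compared between HE-AGM and all YS HE cells, 387 were higher past 2-fold and on the same side in each run, where 27.7% of all 13572 transcripts were. The gene itself was past 2-fold the same way for 208 of them and the parent share for 191. For 153 only the gene passed and for 136 only the share. Of 170 members lower by the same rule, as 17.8% of all transcripts were, the gene passed for 59 and the share for 90, with 46 for the gene alone and 77 for the share alone. The split between gene and share was not made over all transcripts called, so it is no result about the members.

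The most abundant members were housekeeping isoforms. Rpl37a-204, with 6.91% of all member counts, stood at 4044 CPM in HE-AGM, 3210 for HE-YSA and 3222 for HE-YSP, and was 97.9, 98.8 and 98.9% of its gene's counts. Rpl14-202 stood at 1159, 879 and 869 CPM and 84.0, 59.4 and 61.2% of its gene, with the lowest, median and highest cell at 107, 1125 and 2196 CPM for HE-AGM, 285, 808 and 1845 for HE-YSA and 334, 863 and 1394 for HE-YSP. As annotated, each keeps the intron printed above. Whole numbers were 6.72% of the counts of Rpl37a-204 and 0% of those of Rpl14-202, so these levels rest mostly on divided reads. Ncl-202 belongs to nucleolin, the main protein of the nucleolus, and holds 2 whole introns. It stood at 682 CPM in HE-AGM, 463 for HE-YSA and 595 for HE-YSP, and at 1026 in AGM_5 and 985 in the YS progenitors. Its parent share changed less, at 83.4, 71.4, 78.8, 88.7 and 77.2%.

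**Figure D3:**
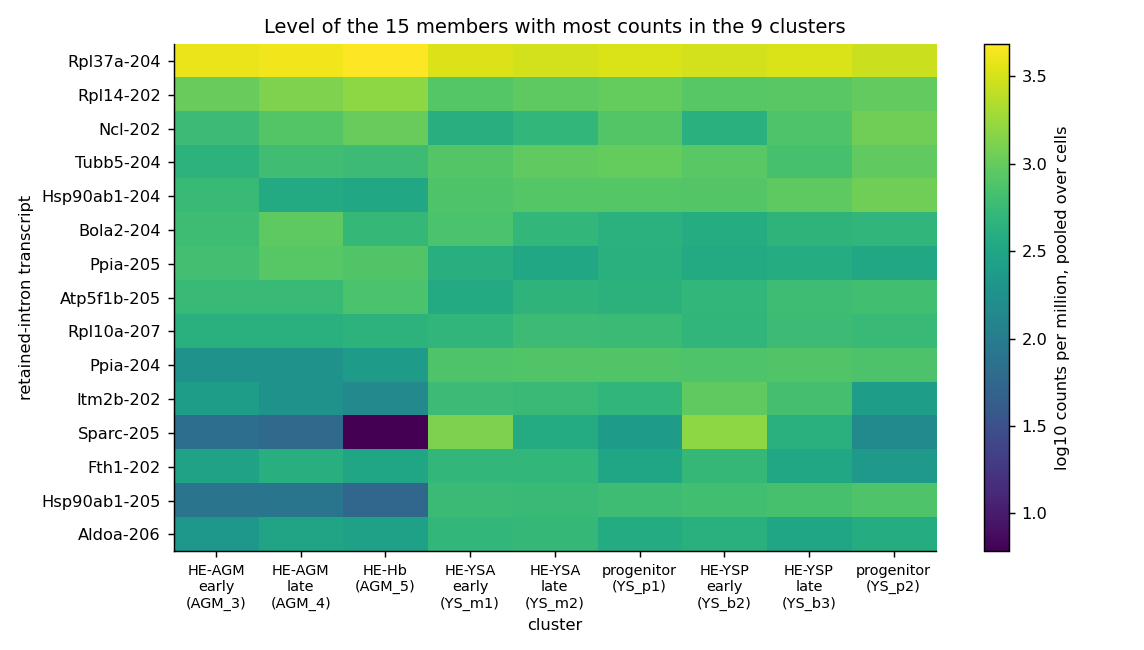
Level (log10 CPM, colour) of the 15 retained-intron transcripts with most counts (rows) in the 9 clusters (columns). Rpl37a-204 is the highest in every cluster, and Sparc-205, Ppia-204 and Hsp90ab1-205 are lower in the 3 AGM clusters than in the YS HE clusters.

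Several abundant members were lower in HE-AGM. Itm2b-202, of a membrane protein of the BRI family, stood at 224 CPM in HE-AGM, 575 for HE-YSA and 821 for HE-YSP. By cell, the lowest, median and highest were 0, 204 and 613 CPM, 105, 555 and 1125 CPM, and 161, 751 and 1630 CPM. Its log2 ratio to YS HE was -1.62 (-1.13, -1.32 and -2.24 by run) and its parent share was similar at 77.1, 83.4 and 82.0%, and its other isoforms together were at 66.7 CPM in HE-AGM and 146 in YS HE. Sparc-205, of the matrix protein osteonectin, was at 64.8, 783 and 1007 CPM and 15.3, 62.0 and 60.8% of its gene. It was at 6.07 CPM in AGM_5 and 192 CPM in the YS progenitors, where its parent share was 60.2%. Whole numbers were 2.34% of the counts of Sparc-205, so its level rests mostly on divided reads. It holds no whole intron, with 94 of 741 bases outside coding exons. Members of Ppia, a gene with many pseudogenes, went opposite ways. Ppia-205 stood at 740 CPM in HE-AGM and 369 and 372 in HE-YSA and HE-YSP, but Ppia-204 at 188 against 777 and 780. Hsp90ab1-205 was at 80.4 against 558 and 668. Ppia encodes cyclophilin A and Hsp90ab1 a cytosolic chaperone, and the counts of these 3 members were almost all fractions of divided reads.

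In some genes the shares of the isoforms shifted between the tissues. The 6 largest and 6 smallest differences in parent share between HE-AGM and YS HE, with the same sign in each run, chose the members below, 11 of which are described and whose values are therefore a description. Prdx2-205, of a thiol peroxidase abundant in red cells, was 76.7% of its gene in HE-AGM, 9.28% for HE-YSA and 11.6% for HE-YSP, and the coding Prdx2-204 was 21.6% in HE-AGM and 89.3% in YS HE. Its level was 226 CPM in HE-AGM (lowest, median and highest cell 15.5, 177 and 642) against 20.5 and 21.2 CPM, where 18 of 52 and 19 of 49 cells held at least 1 count. Erythroid markers were higher in HE-AGM too, as given above, and their part was not tested. Prdx2-205 holds no whole intron, and 106 of its 549 bases lie outside coding exons. Whole numbers were 8.91% of its counts.

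Cdk4-207, which keeps the 688-base intron printed above, shifted the same way, with more counts. It stood at 328 CPM in HE-AGM, with 60.5, 360 and 740 in the lowest, median and highest cell, and all 49 cells held at least 1 count. In HE-YSA it was at 79.4 CPM (median cell 50.01, highest 435) and in HE-YSP at 87.8 (51.8 and 468), with at least 1 count in 27 of 52 and 25 of 49 cells. It was 68.5% of the gene in HE-AGM and 12.3 and 16.1% in the YS populations, while the coding Cdk4-205 was 16.5% in HE-AGM and 68.8% in YS HE. The log2 ratio of the gene itself was -0.32, so that Cdk4 as a whole was not higher in HE-AGM. The AGM_5 cells were like HE-AGM, at 309 CPM and 63.8%. Only 0.10% of its counts were whole numbers, so its level rests on reads divided among isoforms.

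Fbxw2-214, of an F-box protein of ubiquitin ligases and with 1.12% of its counts in whole numbers, was 68.0% against 33.7 and 22.8%, but its runs overlapped, from 49.6 to 81.3% in HE-AGM and from 9.496 to 72.7% in HE-YSA.

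In Tsn and Psmb4 the shift was between transcripts of the retained-intron biotype, of which only Tsn-203 holds a whole intron. Tsn-204 was 48.2% of the gene in HE-AGM, 89.2% for HE-YSA and 91.6% for HE-YSP, and stood at 33.0, 200 and 255 CPM, with median cells at 0, 190 and 240 CPM and highest cells at 210, 854 and 637. Tsn-203, which keeps the 931-base intron, was 45.2% in HE-AGM and 4.21 and 1.94% in the YS populations, and stood at 30.9 CPM in HE-AGM and 7.55 in YS HE. The gene itself was lower in HE-AGM, at 68.5 against 250 CPM (log2 ratio -1.86), so Tsn-204 was lower by more CPM than Tsn-203 was higher. All counts of both were whole numbers, with no sign of divided reads. Psmb4 encodes a proteasome subunit, and there Psmb4-202 was 41.4, 91.3 and 90.9% and Psmb4-203 54.6, 4.27 and 3.16% of the gene. Psmb4-202 stood at 63.6 CPM in HE-AGM (0, 58.4 and 220 in the lowest, median and highest cell), 202 for HE-YSA (28, 201 and 440) and 180 for HE-YSP (0, 156 and 564). Only 19 of the 666 bases of Psmb4-202 lie outside coding exons, so it differs little from spliced RNA. The gene's log2 ratio was -0.46.

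The other members of that choice were higher in the yolk sac. Polr2e-205, which keeps the 72-base intron, was 39.4% of its gene in HE-AGM (23.2 to 59.7% by run) and 86.5 and 86.8% in HE-YSA and HE-YSP. Eif3e-204, of a translation initiation factor subunit, was 18.9, 63.5 and 60.4%, and the coding Eif3e-201 was 76.8% in HE-AGM and 23.9% in YS HE. Whole numbers were 10.6% of the counts of Polr2e-205 and 0.26% of those of Eif3e-204, so both rest mostly on divided reads. Srpra-204, of the receptor for the signal recognition particle, was 38.2, 83.7 and 77.7%. Srpk1-206, of the kinase that phosphorylates SR proteins, was 8.27, 65.4 and 64.3% of its gene, at 7.21, 65.1 and 59.2 CPM. In AGM_5 it had 3 counts. In the YS progenitors it was at 140 CPM and 74.3%. It holds no whole intron, with 31 of 584 bases outside coding exons.

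**Figure D4:**
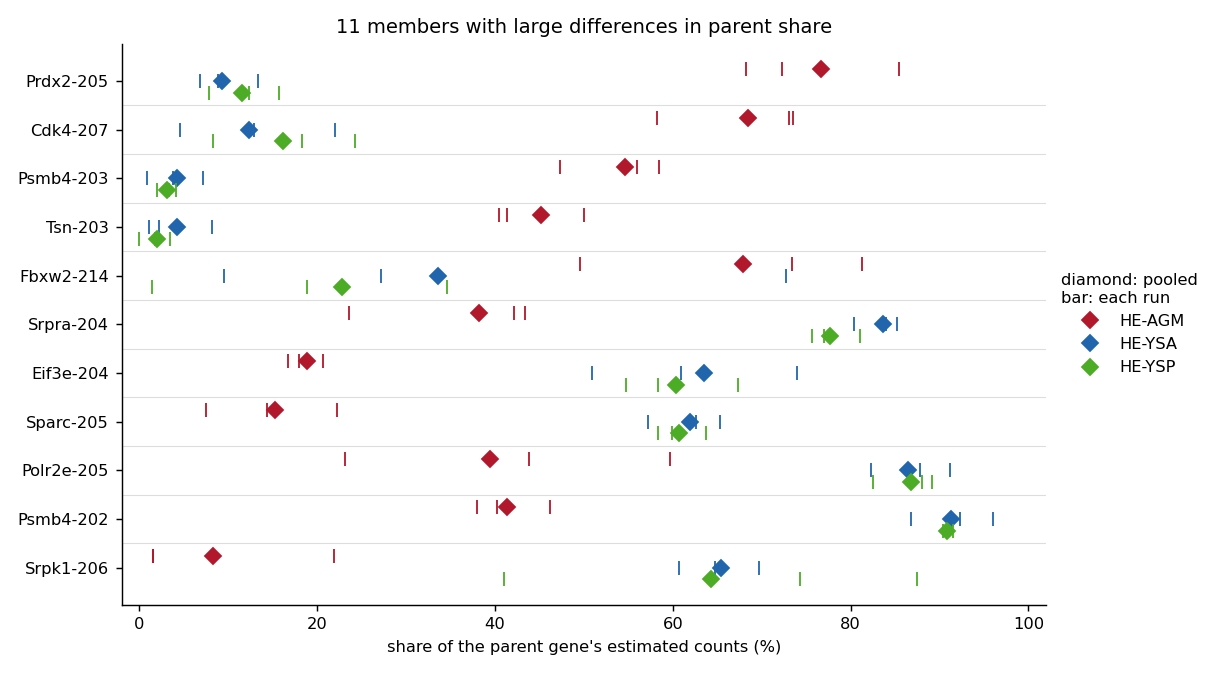
Share of the parent gene's estimated counts (%, horizontal axis) of 11 members chosen by rule for the largest and smallest difference between HE-AGM and YS HE, with a diamond for the pooled share and a bar for each of the 3 runs in HE-AGM, HE-YSA and HE-YSP. Prdx2-205 is at 76.7% in HE-AGM against 9.28 and 11.6%, Psmb4-202 at 41.4% against 91.3 and 90.9%, and the runs overlap for Fbxw2-214.

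Counts in the gene lists below are to be read beside the background given above. Over all transcripts, 33.1% passed upwards and 16.8% downwards for HE-AGM over HE-YSA, and 34.3 and 17.3% over HE-YSP. The lists are small and were not tested, and where a count lies near these shares, as for SR proteins, core spliceosome beside HE-YSA, translation factors and the splicing kinases beside HE-YSP, it is no result about the list. hnRNP proteins bind introns and often repress exons. Of 32 members of their genes 12 could be compared, and 7 were higher and 1 lower than in HE-YSA (median log2 ratio 1.15) and likewise 7 and 1 than in HE-YSP (1.21). Hnrnpk-206 was at 190 CPM in HE-AGM against 53.0 and 50.7, and 30.7% of its gene against 12.3 and 11.5%. Hnrnpk-217 was at 149 CPM against 27.6 and 38.1. Whole numbers made up 0.63% of the counts of Hnrnpk-206 and 1.47% of those of Hnrnpk-217, so these levels rest on divided reads. Members of SR protein genes, which mostly promote exon use, gave 3 higher and 0 lower of 7 in both comparisons, with medians of -0.03 and 0.01. Srsf3-205, with 2.69% of its counts in whole numbers, was at 71.4 CPM against 8.51 and 14.6, whereas Srsf6-204, the most abundant, was at 239, 244 and 285 CPM.

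Core spliceosome members gave 4 higher and 1 lower of 10 against HE-YSA (median 0.76) and 6 and 1 against HE-YSP (1.09). Their summed share was nevertheless lower in HE-AGM, at 0.0366% against 0.0528 and 0.0487%, where Sf3b1-203 has the most counts. Sf3b1-203, which keeps the 1813-base intron, stood at 15.9 CPM in HE-AGM, with median cell 0 and highest 132, against 358 CPM for HE-YSA (331 and 1060) and 323 for HE-YSP (351 and 847). The log2 ratio to YS HE was -4.41 for the isoform and -3.45 for the gene, of which the isoform was 90.9% in YS HE. The other isoforms of Sf3b1 together were at 18.3 CPM in HE-AGM and 34.4 in YS HE, a log2 ratio of -0.90. Sf3b6-202, of the branch-point protein p14, went the other way with 37.4% of its gene in HE-AGM and 3.34% in YS HE.

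Among splicing kinases and regulators, 6 members were higher and 1 lower of 10 against HE-YSA (median 1.18), and 3 and 1 of 10 against HE-YSP (0.76). Arglu1-204 was at 245 CPM in HE-AGM, 88.7 for HE-YSA and 58.6 for HE-YSP. By cell the lowest, median and highest were 66.0, 229 and 528 CPM, then 0, 83.4 and 374 CPM, then 0, 27.2 and 232 CPM, and all 49, 33 of 52 and 24 of 49 cells held at least 1 count. Its log2 ratio to YS HE was 1.72 (1.75, 1.479 and 1.78 by run), and with 95.7, 91.4 and 91.6% of the gene's counts in this isoform, that of the gene was 1.65. AGM_5, at 203 CPM, was like HE-AGM, and the YS progenitors, at 54.7 CPM, like YS HE.

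Of 9 members of nonsense-mediated decay and exon junction genes, 1 had enough counts to compare, Rbm8a-204 of the exon junction protein Y14. It was at 88.0 CPM in HE-AGM against 10.496 and 11.4, a log2 ratio of 3.03 to HE-YSA and 2.92 to HE-YSP, and 87.2% of its gene against 58.3 and 55.9%.

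**Figure D5:**
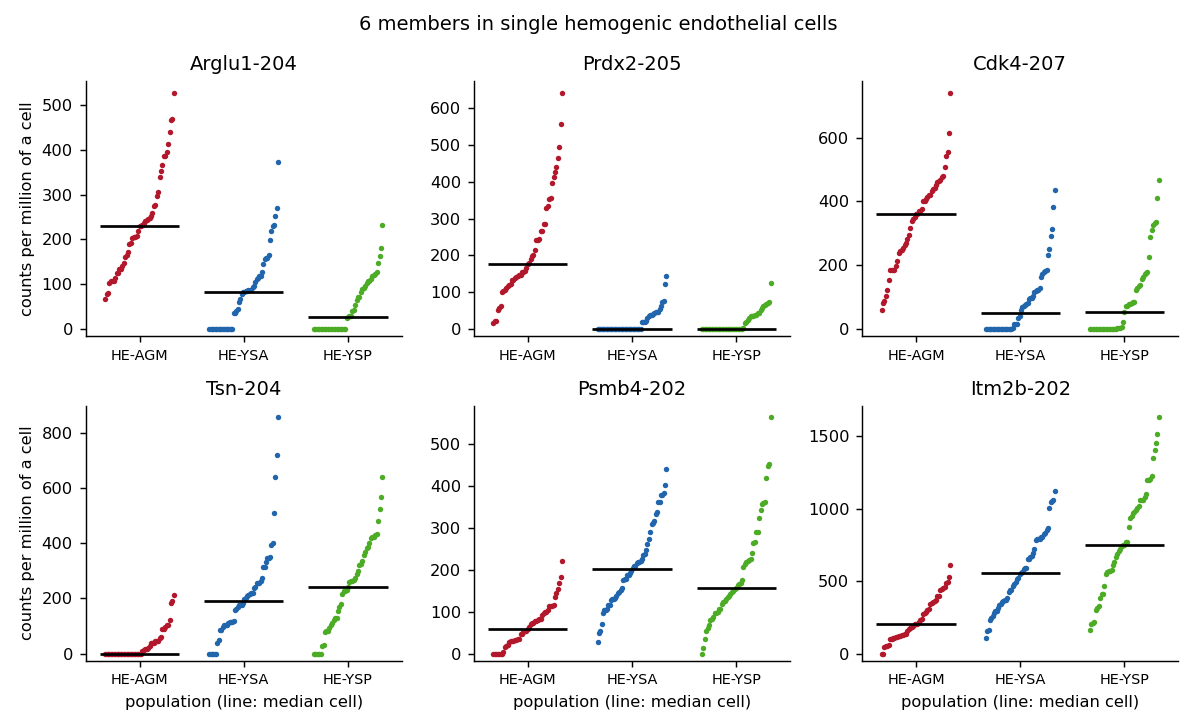
Level (CPM, vertical axis) of 6 retained-intron transcripts in each cell of HE-AGM, HE-YSA and HE-YSP, with a line at the median cell. Arglu1-204, Prdx2-205 and Cdk4-207 have higher medians in HE-AGM (229, 177 and 360 CPM) and Tsn-204, Psmb4-202 and Itm2b-202 lower ones (0, 58.4 and 204 CPM), with overlap in single cells.

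Members of ribosomal protein genes held the largest share of the lists, 0.907% of all counts in HE-AGM against 0.717 and 0.722%. Of 44 compared, where 33.1 and 34.3% of all transcripts were higher as above, 21 were higher and 5 lower against HE-YSA (median 0.97), and 21 and 6 against HE-YSP (0.89). Rpl30-204, at 82.6 CPM in HE-AGM and with 1.16% of its counts in whole numbers, was at 2.69 and 3.04 CPM in the YS populations. Translation factor members were divided, with 8 higher and 6 lower of 19 (median 0.45) and 7 and 6 of 18 (-0.51). Members of mitochondrial energy genes gave 15 higher and 1 lower of 27 against HE-YSA (1.30) and 14 and 0 of 25 against HE-YSP (1.03). Of hosts of small nucleolar RNAs, 0 of 3 passed either way against HE-YSA and 1 of 3 was higher against HE-YSP, with medians of -0.88 and -0.16. Of 17 members of endothelial and blood genes, 4 were compared with HE-YSA, 0 higher and 2 lower (-0.93), and 1 with HE-YSP, which did not pass (0.55). Of the 7 members of genes the study discusses, 3 were higher and 1 lower of 4 in both comparisons (1.28 and 1.78). The study picked those genes from related data, so this is not independent evidence. The lower one was Ythdf2-202, of a reader of methylated RNA, at 17.3 CPM in HE-AGM against 55.8 and 37.2, but its log2 ratio to YS HE of -1.44 was 0.11 in run 2.

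Other members stood out by size. H19-206, of the imprinted growth-restraining RNA H19 and with almost no count in whole numbers, was at 171 CPM in HE-AGM against 9.10 and 8.97, and Cdkn1c-204, of the imprinted cell cycle inhibitor p57, at 139 against 13.6 and 5.28. Both were lower in AGM_5, at 46.0 and 18.8 CPM. Birc6-206, of a large inhibitor of apoptosis, was at 109 CPM against 5.77 and 7.78 and has 29 of 1030 bases outside coding exons. Pabpc1-204, of the cytoplasmic poly(A)-binding protein and likewise almost all fractions, was at 284 CPM against 23.9 and 11.7.

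Between HE-YSP and HE-YSA, both kinds of YS HE, the shares of members past 2-fold lay near those of all transcripts. Of 499 compared, 30 (6.01%) were higher in HE-YSP, beside 5.12% of all transcripts, and 31 (6.21%) lower, beside 6.18%, and the same side in each run held for 18 (3.61%, beside 4.02% of all) and 20 (4.01%, beside 4.45%). Lyve1-202, of a hyaluronan receptor of lymphatic and yolk sac endothelium, was at 346 CPM in HE-YSP and 21.5 in HE-YSA, with at least 1 count in 40 of 49 and 6 of 52 cells. HE-AGM had 2 counts. Its parent share was 51.9 and 54.7%, so it followed its gene, and the plexus markers above moved with it. Crip1-204, of a small LIM protein, was lower in HE-YSP at 27.5 against 92.9 CPM, with parent shares of 20.8 and 20.1%. Procr-204, of the endothelial protein C receptor, was at 10.8 against 67.4 CPM and Gadd45g-202, of a stress-response protein, at 21.5 against 69.8.

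For YS progenitors beside YS HE, the shares also lay near those of all transcripts at the minimum of 50 counts. Of 682 members compared, 48 (7.04%) were higher, beside 6.2% of all transcripts, and 74 (10.9%) lower, beside 11.6%. The same side in each run held for 35 (5.13%, beside 4.76% of all) and 58 (8.504%, beside 9.98%). Members were ranked only if they had at least 200 counts over the HE populations and the same sign in each run. Those highest over YS HE were then Srpk1-206, Ppif-202, Eif1ad-203 and Gtf2a2-207. Ppif-202, of mitochondrial cyclophilin D, was at 90.4 against 35.6 CPM. Eif1ad-203 was at 81.8 against 36.8, and Gtf2a2-207, of the basal transcription factor TFIIA, at 73.4 against 29.5. Members of endothelial genes were among the lowest. Lyve1-202 was at 13.7 against 173 CPM, and Nid1-203, of the basement membrane protein nidogen, at 2.16 (0.445 to 6.31) against 26 CPM. Summed endothelial markers were at 478 CPM in YS_p1 and 310 in YS_p2, against 1271 and 1246 in HE-YSA and HE-YSP.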

How the data were processed

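Single cells were sorted into plates, amplified by Smart-seq2 and sequenced as full-length cDNA on a nanopore instrument. The authors basecalled and trimmed the reads, removed chimeric ones, aligned them to GENCODE transcripts (release 37 in the study's methods) with Minimap2 2.26, keeping up to 10 alignments per read, and ran NanoCount, which divides ambiguous reads among isoforms. The authors deposited estimated counts without normalization. Their deposited TPM values are those counts scaled to an equal total per cell. They were used to check this and, averaged over cells, as an alternative to the pooled counts. The authors applied a depth filter and DESeq2 1.40.2 only after this step.

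Here, cells below 17595 counts (the median total minus 1 scaled median absolute deviation) were left out. Cells were grouped by the cluster in their labels, and HE-AGM, HE-YSA and HE-YSP each join an early and a late cluster. YS HE joins HE-YSA and HE-YSP, and YS progenitors join YS_p1 and YS_p2. No cell columns were identical. Counts were summed over the cells of a population and divided by its total count (CPM, shares). Members had at least 10 summed counts, within 1e-06. A parent share is a member's part of its gene's summed counts. Ratios are log2 of CPM with 0.5 counts added, for transcripts with at least 50 counts over both populations, so ratios of low members are understated. Intervals are 95% exact binomial or Poisson intervals of rounded counts. No test was run, because cells of unnamed embryos are not replicates. Named members were the 15 with most counts. The largest and smallest ratios (at least 200 counts over the HE populations, same sign in each run) were added. So were the 12 largest differences in parent share (parent gene with at least 200 counts in each population). The study's genes and the 3 members with most counts of each list were named too. 1 of these members is not reported here. The members, lists and rule were chosen with earlier results of these data known. Exons were compared with GENCODE M21 (GRCm38), matched by identifier without version and by equal length, since the authors used another release. A gap of at least 30 bases counted as an intron. The scripts recovered known shares and ratios in simulated counts. Alternatives were each run, matched and thinned depth, cell filters, count and fold limits, whole-number counts, TPM averaged over cells, median-ratio scaling and left-out cells. Python 3.11.15 with numpy 2.4.6, pandas 2.3.3, scipy 1.17.1 and matplotlib 3.10.9 was used.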

Additional observations from a re-analysis of the deposited data

How the results depend on the processing

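No paired analysis was possible because replicate numbers only name cells and no embryo links them. HE-AGM stayed above HE-YSA and HE-YSP in member share under all 18 alternatives, by 0.247 to 1.07 and 0.3505 to 1.02 percentage points. In total 149 of 162 differences in share, 43 of 51 in parent share and 363 of 462 log2 ratios moved by less than the SD over the runs.

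Differences in share that moved more included, for HE-AGM minus HE-YSA, 0.247 with whole-number values and 0.3503 in run 1. For HE-AGM minus HE-YSP they were 0.3505 with whole-number values, 1.02 in run 3, 0.471 with members of at least 50 counts and 0.470 at a fixed length mix, an alternative chosen after seeing the data. Also moved were HE-YSP minus HE-YSA to 0.196 in run 2, YS_p1 minus YS_m2 to -0.683 in run 1 and YS_p2 minus YS_b3 to 0.213 in run 1. In run 1, AGM_4 minus AGM_3 moved to 0.295, YS_m2 minus YS_m1 to 0.555 and YS_b3 minus YS_b2 to -0.0957. Using cells of 1 project per tissue, also chosen after seeing the data, gave 0.695 and 0.697. Differences in parent share were 2.61 (HE-AGM minus HE-YSA, run 3), then for HE-AGM minus HE-YSP 2.05 at matched depth, 2.25 with whole-number values, 2.06 in run 3 and 1.11 with E10.5 YS cells, and for HE-YSP minus HE-YSA -0.449 with whole-number values, 0.554 in run 3 and 0.776 with members of at least 50 counts. The cause was not tested. Among 77 members named by rule, the log2 ratio to YS HE of 11 had another sign in a run or at matched depth, and 1 of these was past 2-fold, Ythdf2-202, with 0.11 in run 2.

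Counts of members past the fold limit followed the limits, which change how many can pass. With at least 20 counts there were 913 higher and 329 lower than in HE-YSA, and 899 and 272 than in HE-YSP. There were 129 and 177 for HE-YSP over HE-YSA, and 147 and 290 for YS progenitors over YS HE. For HE-YSP over HE-YSA these were 10.99 and 15.08% of members, beside 9.1 and 11.04% of all transcripts. For the progenitors they were 9.95 and 19.62%, beside 8.84 and 17.18%. At this minimum, members lower in HE-YSP thus stood above the share of all transcripts. With at least 200 counts the comparisons, in the order first given, gave 73 and 36, 71 and 41, 2 and 5, and 6 and 10. For HE-YSP over HE-YSA these were 1.43 and 3.57%, beside 1.86 and 2.43% of all transcripts. For the progenitors they were 3.14 and 5.24%, beside 2.64 and 6.83%. At 3-fold, 274 were higher and 76 lower than in HE-YSA (29.5 and 8.18%, beside 21.3 and 8.24% of all transcripts). Against HE-YSP there were 272 and 69 (30.2 and 7.65%, beside 22.9 and 8.77%). Between HE-YSP and HE-YSA 11 and 11 differed (2.20 and 2.20%, beside 1.89 and 2.48%), and in the progenitors 7 and 44 (1.03 and 6.45%, beside 1.37 and 6.91%). At matched depth, with fewer cells, 127 were higher and 72 lower than in HE-YSA, and 115 and 69 than in HE-YSP. The same side in each run left 18 and 20 for HE-YSP over HE-YSA (3.61 and 4.01%, beside 4.02 and 4.45% of all transcripts). Median-ratio scaling, which moved the HE-AGM ratios by 0.23 and 0.29, gave 326 and 169, and 310 and 172. In these 5 alternatives, members higher in HE-AGM made up 28.97 to 46.6% of those compared, beside 21.3 to 38.9% of all transcripts, and lower ones 7.65 to 19.1%, beside 8.24 to 23.7%.

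Depth limits the single members: the median member had 29 counts over 208 cells, and 47.7% of member values above 0 were below 1 count. In thinning, 51 of 52 HE-YSA and 48 of 49 HE-YSP cells could be used.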
